A study of Mus musculus with 24 samples.

Results

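LLC1 cells, a cultured line from the mouse Lewis lung carcinoma, were exposed for 24 h either to the MEK inhibitor trametinib at 10 nM or to chemotherapy, which was cisplatin at 2.5 µM with pemetrexed at 2.5 µM. The 3 trametinib libraries and the 3 chemotherapy libraries of that time were compared, 6 of the 24 poly(A) RNA libraries of the series. Untreated cells, which received 0.1% DMSO, and cells given all 3 drugs (the combination) make up the other groups of 24 h, and the same 4 treatments were sampled at 6 h, again with 3 libraries each. The labels give DMSO for the untreated cells alone and name no genetic change in any group. They do not say whether the triplicates were separate cultures, so the p-values below rest on the spread of these libraries alone, part or all of which may be technical.

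Trametinib blocks MEK, the kinase that activates ERK. ERK in turn switches on immediate early genes, growth factor genes and the phosphatases and Sprouty proteins that restrain the pathway. Cisplatin crosslinks DNA, which stabilises the transcription factor p53, while pemetrexed inhibits the folate enzymes that make thymidylate and purines and so starves replication forks of nucleotides. A direct comparison of the 2 treatments therefore sets the loss of a growth signal against damage and nucleotide shortage in the same cells.

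Values are TPM, a length-corrected share of each library's transcripts on a scale common to all libraries, summed here per gene. A difference is the log2 of TPM + 1 with trametinib minus that with chemotherapy, from 3 libraries in each group. It is given ± its standard error, for which the spread was pooled over all 8 groups and moderated across genes. The difference is positive where trametinib was higher, and it understates the change of genes near 1 TPM. Higher and lower are used for genes with an adjusted p under 0.05 in limma's moderated test. Between 11625 and 11720 genes reached 1 TPM in each of the 6 libraries. Libraries of 1 treatment correlated at 0.982 to 0.992 across genes, and libraries of different treatments at 0.934 to 0.942. Of the epithelial markers, Krt8 (96.6 to 146 TPM) and Krt18 (121 to 361 TPM) were expressed in all 6 libraries, whereas Cdh1 stayed at or below 0.154 TPM and Epcam was listed at 0. The macrophage markers Adgre1 and Itgam were at 0 and Ptprc at or below 0.0121 TPM. The summed level of the 6 macrophage markers was 5.05 to 6.74 TPM with trametinib and 34.8 to 41.2 TPM with chemotherapy, most of it Cd68. The 5 fibroblast markers, led by the collagen gene Col3a1, summed to 1102 to 1128 TPM with trametinib and 258.7 to 286.3 TPM with chemotherapy. The 4 endothelial markers summed to 3.46 to 4.46 TPM with trametinib and 7.10 to 12.9 TPM with chemotherapy, nearly all of it Pecam1. T and NK cell, B cell and red cell markers summed to at most 2.30 TPM in any of the 6. In a bulk sample, fewer cells of a type and less RNA per cell cannot be told apart.

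The 2 treatments left the cells with widely different transcriptomes at 24 h. Of 12581 genes tested, 8382 were called (66.6%), 3922 higher with trametinib (31.2%) and 4460 lower (35.5%), and the median difference over all genes was -0.04. The 3 libraries of each treatment did not overlap for 8730 genes (69.4%). A difference of at least 2-fold was called for 670 higher and 773 lower genes, and the Bonferroni rule that the series' design text gives for its own test (0.10) left 4247. The count of any gene group stands against these shares, since a gene taken without selection was called more often than not.

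**Figure D1:**
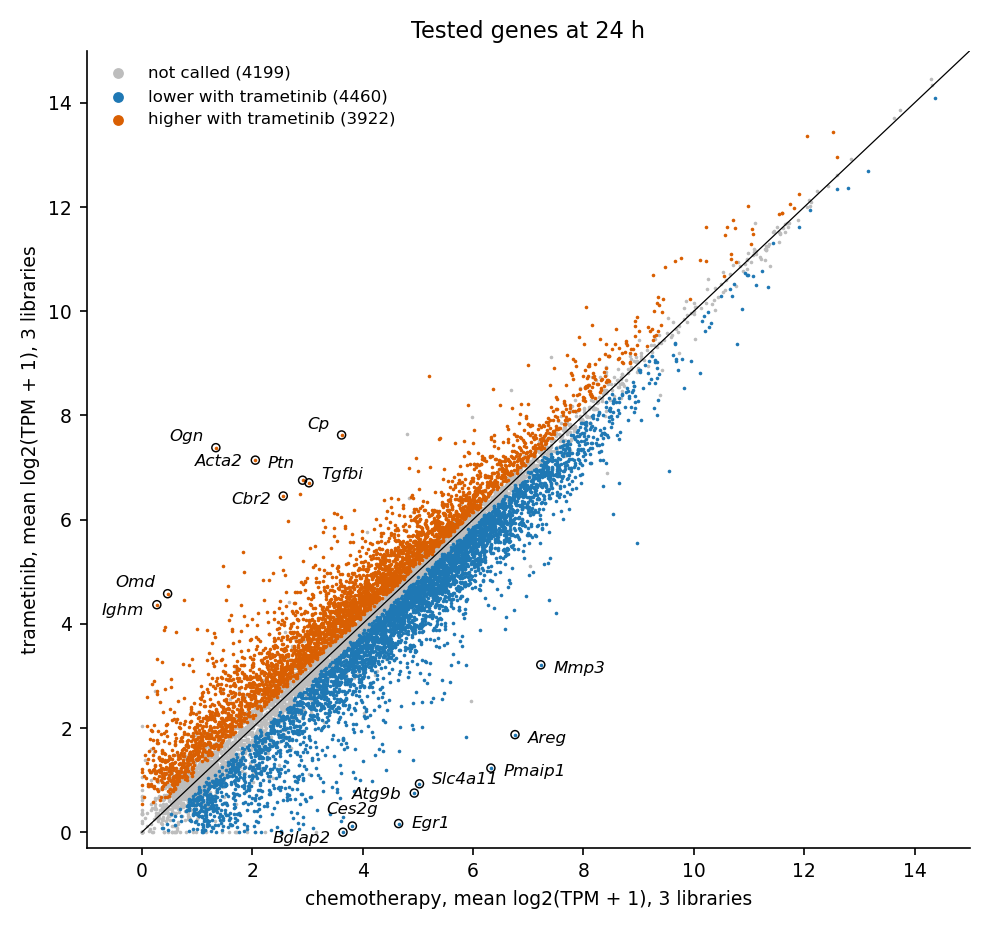
Mean log2(TPM + 1) of each tested gene at 24 h with chemotherapy (horizontal) and with trametinib (vertical), 3 libraries each; genes called higher with trametinib are orange, called lower are blue, and not called are grey. The labelled genes are the 8 largest differences each way among named genes, from Ogn at 6.04 to Pmaip1 at -5.09.

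The largest rise was that of Ogn, which encodes the small matrix proteoglycan osteoglycin and lies on chromosome 13 at 49608046 to 49624501 in GRCm38. Ogn stood at 174, 172 and 152 TPM in the 3 trametinib libraries and at 1.61, 1.63 and 1.37 TPM in the 3 chemotherapy libraries (6.04 ± 0.10, adjusted p = 8.4e-19). Its relative Omd, osteomodulin, was at 23.97, 23.01 and 21.74 against 0.383, 0.370 and 0.393 TPM (4.11 ± 0.09). Untreated cells lay near the chemotherapy cells for both genes, with means of 3.11 and 0.420 TPM. Other genes in the same range were Cp, the copper carrier ceruloplasmin (196 against 11.3 TPM, 4.01 ± 0.12), Ptn, the growth factor pleiotrophin (3.85 ± 0.10), Cbr2, a carbonyl reductase (3.89 ± 0.20), and H1f0, a linker histone (3.56 ± 0.06). For H1f0 the chemotherapy cells stood furthest from untreated ones, with means of 35.6 TPM with chemotherapy, 254 untreated and 430.3 with trametinib. Ighm, the constant region gene of the antibody heavy chain mu, was at 20.9, 20.9 and 17.3 TPM with trametinib and at 0.117, 0.194 and 0.320 TPM with chemotherapy.

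The deepest fall was in Pmaip1, the gene of the BH3-only protein Noxa, which promotes cell death. Its levels were 1.38, 1.34 and 1.31 TPM with trametinib and 79.4, 83.9 and 74.3 TPM with chemotherapy (-5.09 ± 0.10, adjusted p = 2.2e-18), and untreated cells lay between them at 6.43, 5.46 and 6.38 TPM. Several other genes were low with trametinib and in untreated cells and high with chemotherapy. Ces2g, a carboxylesterase, was at 0.0859 TPM with trametinib, 0.299 untreated and 12.2, 13.6 and 13.5 with chemotherapy. The LIM protein gene Crip2 (1.60, 1.82 and 29.4 TPM) and Atg9b, a lipid scramblase of autophagy (0.685, 1.84 and 29.6 TPM), were arranged alike. Bglap2, an osteocalcin gene, was listed at 0 in all 3 trametinib libraries and at 11.4, 11.1 and 12.0 TPM with chemotherapy. Its reads are uncertain because near-identical osteocalcin genes lie beside it. The keratin gene Krt13 (-3.20 ± 0.14), the transporter genes Slc4a11 (-4.10 ± 0.10) and Slc16a6 (-3.23 ± 0.13) and Cd80, a costimulatory ligand (-3.38 ± 0.09), were lower as well.

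The output of the ERK pathway was lower with trametinib. Of the 32 listed genes 31 passed the filter, and 25 of those were lower and 2 higher, with a median of -1.41. Dusp6, the phosphatase that switches ERK off (chromosome 10 at 99263231 to 99267489), stood at 40.7, 43.5 and 50.5 TPM with trametinib and 126, 115 and 121 TPM with chemotherapy (-1.41 ± 0.14, adjusted p = 3.1e-08). The chemotherapy libraries lay close to the untreated ones (106, 105 and 118 TPM), and the 2 treatments did not overlap. Etv4, an ETS transcription factor, showed the same arrangement, with 16.6, 16.6 and 22.1 against 103, 104 and 111 TPM (-2.47 ± 0.19) and an untreated mean of 98.9 TPM.

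Against untreated cells, 12 of the 31 ERK output genes were higher with chemotherapy and 8 lower (median 0.10), where 34.9% and 24.3% of all genes were called in those directions. Egr1, an immediate early transcription factor, was at 0.0578, 0.130 and 0.181 TPM with trametinib, 25.8, 23.8 and 22.9 TPM with chemotherapy and 3.14, 2.73 and 3.85 TPM untreated. Its difference between treatments was -4.49 ± 0.10, of which trametinib minus untreated gave -1.91 ± 0.10 and chemotherapy minus untreated 2.58 ± 0.10. Those last 2 values share the untreated libraries and are given side by side. Spry4, a feedback inhibitor of receptor signalling (-2.71 ± 0.17), Ier3 (-2.90 ± 0.16), the cytokine gene Lif (-3.09 ± 0.12) and the phosphatase gene Dusp5 (-2.30 ± 0.08) were also higher with chemotherapy than in untreated cells (0.74, 0.84, 1.05 and 0.71). Wnt7b, a Wnt ligand, was lower with trametinib (-2.59 ± 0.14) and its chemotherapy level did not pass the test against untreated cells (-0.14 ± 0.14). The 2 members that went the other way, named after their values were seen as are the other exceptions to a list below, were Spry1 (1.27 ± 0.10) and Emp1 (0.22 ± 0.07).

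**Figure D2:**
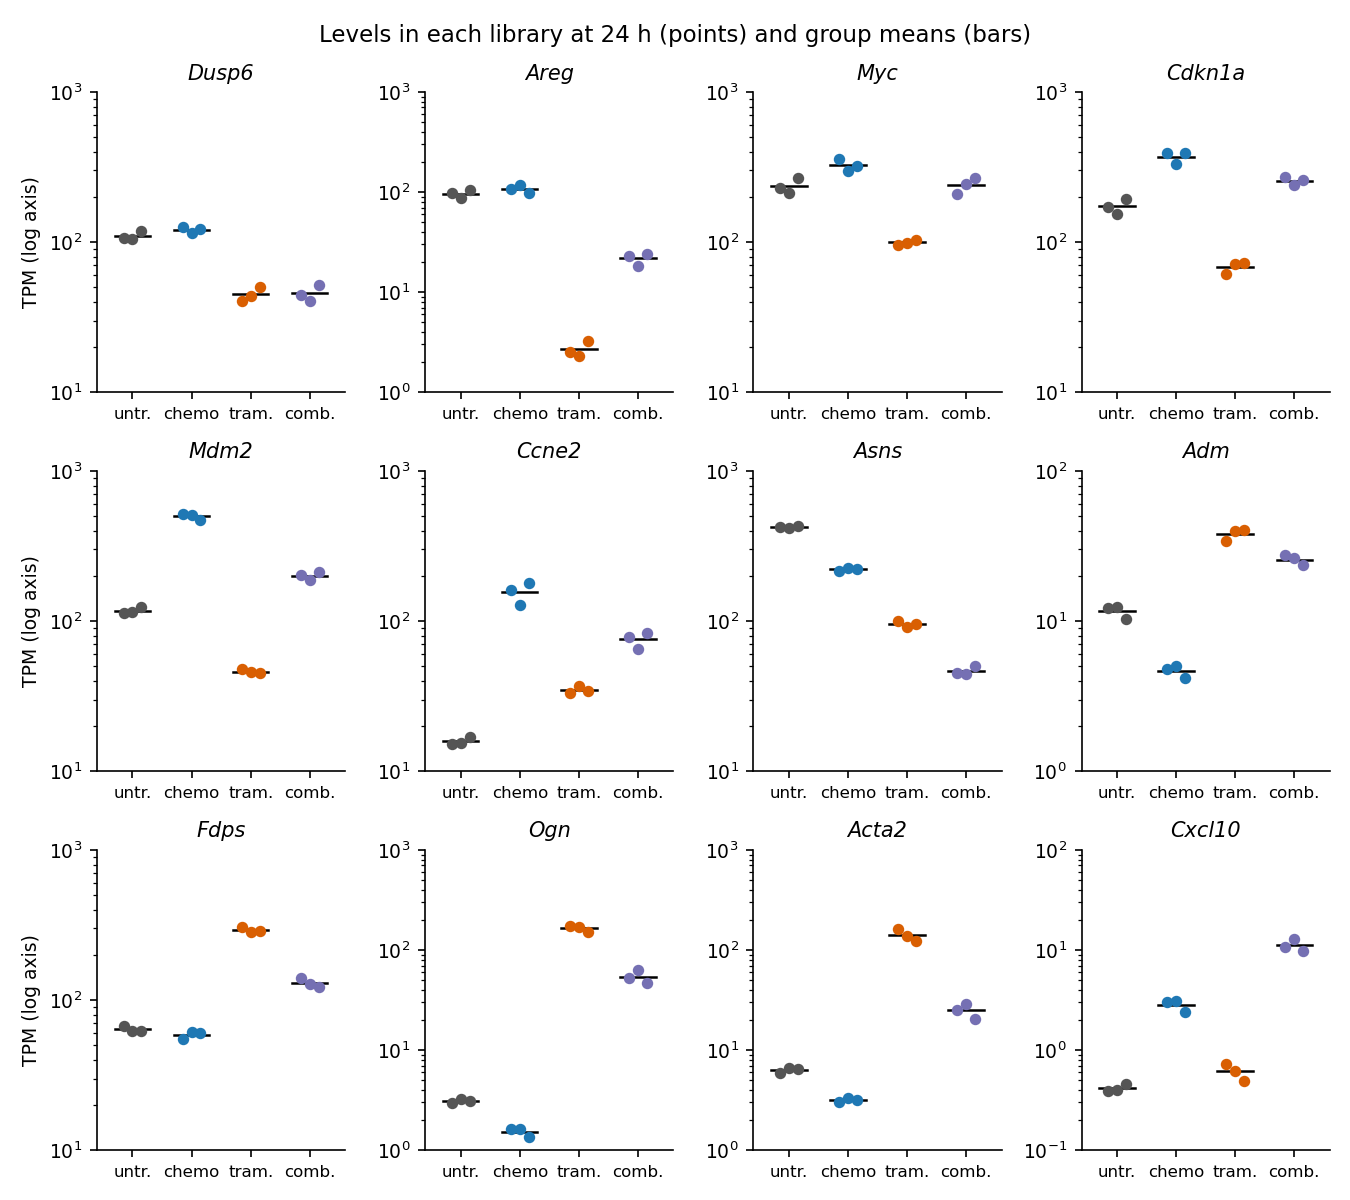
TPM in each 24 h library on a log axis for 12 genes, with untreated, chemotherapy, trametinib and combination libraries side by side; each point is 1 library and each bar the group mean. Dusp6, Areg and Myc fall with trametinib, Cdkn1a, Mdm2 and Ccne2 rise with chemotherapy, and Ogn, Acta2 and Fdps rise with trametinib.

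Genes of several EGF receptor ligands were lower with trametinib. Areg, which encodes the EGF receptor ligand amphiregulin (chromosome 5 at 91139599 to 91148432), stood at 2.52, 2.30 and 3.23 TPM with trametinib against 107, 117 and 98.7 TPM with chemotherapy (-4.89 ± 0.10, adjusted p = 9.9e-18) and 96.8, 88.0 and 104 TPM in untreated cells. Ereg (4.93 against 42.3 TPM, -2.87 ± 0.09), Hbegf (-2.56 ± 0.08), Btc (-2.18 ± 0.08) and Tgfa (-0.86 ± 0.09), which encode further ligands of the same receptor, were lower too. The receptor gene Egfr was higher (34.2 against 18.7 TPM, 0.83 ± 0.12), and so was Erbb2 (0.62 ± 0.06), while Erbb3 was lower (-0.77 ± 0.08). Over the whole list of ligands and receptor tyrosine kinases 9 of 22 members were higher and 8 lower, and 10 further members lay below the filter. Egfr, Tgfa and Erbb3 were named after their values were seen.

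Myc, the growth-promoting transcription factor, was at 95.8, 99.2 and 104 TPM with trametinib and 359, 298 and 321 TPM with chemotherapy (-1.70 ± 0.11, adjusted p = 8.6e-11). Its antagonist Mxd4 was higher (34.5 against 12.0 TPM, 1.45 ± 0.10) and the shared partner Max lower (-0.79 ± 0.05). In all, 5 of 13 members of the MYC network list were higher and 7 lower, and the higher count was 2 without chemotherapy library 2 or trametinib library 2 and 3 without trametinib library 3. Txnip, a brake on glucose uptake in that list, was raised by both treatments over untreated cells (26.1, 24.1 and 24.0 TPM), to 252, 285 and 304 TPM with trametinib and to 583, 641 and 639 TPM with chemotherapy. The chemotherapy level was the higher of the 2 (-1.15 ± 0.13). Ccnd1, the cyclin that carries growth signals into the cell cycle, was at 88.9 against 214 TPM (-1.26 ± 0.16), and the genes of its relatives Ccnd2 (-0.55 ± 0.07) and Ccnd3 (-0.71 ± 0.17) were lower as well. The CDK inhibitor genes Cdkn1b (0.56 ± 0.06) and Cdkn2c (0.50 ± 0.06) were higher. Of the 12 measured D cyclin and CDK inhibitor genes, 3 were higher and 6 lower.

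Genes listed here as p53 targets were lower with trametinib than with chemotherapy nearly throughout the list. Of 39 measured, 35 were lower and 2 higher, with a median of -1.26. The 2 that were higher were Sesn1 (0.95 ± 0.07) and Ckap2l (0.25 ± 0.07), and Ddb2 (-0.02 ± 0.10) and Xpc (0.05 ± 0.07) did not pass. The decamer of p53 response elements, searched on both strands and given by its name, was found within 250 bases before and 50 after the start of 13 of the 32 list genes with a RefSeq promoter entry (40.6%), against 8.24% of 9150 tested genes with an entry. Stretches around it are shown for 4 of these 13 genes, all 4 lower with trametinib, with the match in capitals. They run 5′ to 3′ on the gene's strand, from RefSeq in GRCm38.p6. Sesn1, which was higher, also held a match, at -173, so a match did not go with 1 direction only. In Cdkn1a the matches start at -73 and -51, in Mdm2 at -186, in Ccng1 at -185 and in Inka2 at -81. Positions count from the start site, and a match describes these letters, not binding. The list was chosen as p53 targets, so the share with a match describes the list and not the difference between treatments.
Cdkn1a (chr17:29090881-29090962, forward strand): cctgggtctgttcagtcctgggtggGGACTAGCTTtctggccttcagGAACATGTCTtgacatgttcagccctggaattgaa
Mdm2 (chr10:117710910-117710969, reverse strand): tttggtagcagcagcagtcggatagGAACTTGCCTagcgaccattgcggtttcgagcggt
Ccng1 (chr11:40755437-40755496, reverse strand): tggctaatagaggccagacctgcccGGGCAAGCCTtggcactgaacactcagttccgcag
Inka2 (chr3:105705352-105705411, forward strand): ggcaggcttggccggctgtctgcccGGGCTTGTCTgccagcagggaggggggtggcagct

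Cdkn1a, the gene of the CDK inhibitor p21, stood at 61.2, 71.1 and 72.4 TPM with trametinib and 393, 331 and 391 TPM with chemotherapy (-2.43 ± 0.12, adjusted p = 1.1e-12). Untreated cells held 172, 154 and 194 TPM, so the trametinib libraries were below and the chemotherapy libraries above all 3 of them. Mdm2, the ubiquitin ligase that degrades p53, was at 47.9, 45.4 and 45.0 against 519, 507 and 471 TPM (-3.41 ± 0.09) with an untreated mean of 117 TPM, again between the 2. Ccng1, cyclin G1 (-1.95 ± 0.08), Btg2, an antiproliferative factor (-2.69 ± 0.08), Inka2 (-2.66 ± 0.07) and Ercc5, an excision repair nuclease (-1.49 ± 0.06), were lower in the same way. Against untreated cells, 28 of the 39 members were lower with trametinib (median -0.51), where 58.7% of all genes tested were called in that comparison and 26.3% were lower. The chemotherapy median against untreated was 0.61, where 59.2% of all genes were called.

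Genes of DNA replication were lower with trametinib than with chemotherapy, and the chemotherapy cells stood further from untreated ones. Of 45 S phase and E2F targets, 42 were lower and 0 higher (median -0.82). Ccne2, a cyclin that drives entry into S phase, stood at 33.4, 36.8 and 34.0 TPM with trametinib and 162, 129 and 179 TPM with chemotherapy (-2.13 ± 0.12, adjusted p = 5.2e-12). Both exceeded the untreated libraries at 15.1, 15.5 and 16.8 TPM. The transcription factor gene E2f2 was at 2.78 against 17.1 TPM (-2.26 ± 0.09), the licensing factors Cdc6 and Orc6 differed by -1.53 ± 0.08 and -1.28 ± 0.06, Pcna, the sliding clamp of DNA polymerases, by -0.69 ± 0.05, and Mcm2, a subunit of the replicative helicase, by -0.86 ± 0.08. The list median against untreated cells was 0.25 with trametinib and 1.09 with chemotherapy, and 43 of its 45 members were higher with chemotherapy than untreated, as were 34.9% of all genes. Mcm6 (-0.13 ± 0.06), Lig1 (-0.03 ± 0.08) and Dscc1 (-0.13 ± 0.07) did not pass between the treatments, although Mcm6 did without chemotherapy library 3 (adjusted p = 0.0499) and Dscc1 without trametinib library 1 (adjusted p = 0.034). In limma's test 0 members were also higher at an unadjusted p under 0.05, and no other tool was run.

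Folate and nucleotide genes gave 30 lower and 3 higher of 35 (median -0.68). Tyms, thymidylate synthase, which pemetrexed binds, was at 60.8, 52.3 and 54.0 against 80.2, 79.0 and 76.9 TPM (-0.49 ± 0.07), and Gart, a purine synthesis enzyme that it also binds, at 50.4, 40.5 and 46.4 against 134, 127 and 126 TPM (-1.48 ± 0.07). Untreated cells held means of 33.8 and 84.5 TPM, so that Tyms was raised by both treatments while Gart was lower with trametinib (-0.88 ± 0.07) and higher with chemotherapy (0.60 ± 0.07). Mthfd1l, a mitochondrial folate enzyme, went against the list at 77.7, 79.5 and 87.5 against 32.8, 33.6 and 33.4 TPM (1.27 ± 0.06), as did the folate carrier gene Slc46a1 (0.85 ± 0.09) and Tk1, thymidine kinase (0.20 ± 0.06). In crosslink and excision repair, 9 of 35 were higher and 16 lower. Fancl, the ligase of the Fanconi pathway, was among those higher (1.06 ± 0.10).

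Mitotic genes were mixed at 24 h. Of 45 G2 and mitosis genes 9 were higher and 16 lower, with a median of -0.07 that lay near that of all genes. Cenpf, a kinetochore protein, was at 73.9 against 25.6 TPM (1.50 ± 0.12), and Aspm and Nusap1, proteins of the spindle, differed by 0.94 ± 0.10 and 0.79 ± 0.08. Ect2, an exchange factor for cell division, was lower (-0.71 ± 0.07). Ccnb1, cyclin B1, had similar levels (219, 190.3 and 215 TPM with trametinib and 192, 212 and 198 with chemotherapy, 0.05 ± 0.06, adjusted p = 0.50), and the libraries of the 2 treatments overlapped.

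The amino acid stress response run by ATF4 was lower with trametinib, although chemotherapy cells were themselves below untreated cells. Of 38 measured ATF4 targets 31 were lower and Cebpg (0.74 ± 0.07) was higher (median -0.88), joined by 1 more without chemotherapy library 2 or trametinib library 2 or after rescaling. Against untreated cells the list medians were -1.25 with trametinib, where 34 members were lower, and -0.39 with chemotherapy, where 24 were lower. Of all genes 26.3% and 24.3% were lower in these comparisons. The ATF4 element, searched as TGATGNAA on both strands, was found in the promoter window of 15 of 32 list genes with an entry (46.9%), against 2.63% of all tested genes with one. The list was chosen as ATF4 targets, so this share describes the list and not the difference between treatments. The matches of 3 members are shown because these genes had among the clearest differences, and Slc7a11 was picked after its values were seen. They start at -23 in Asns, at -110 in Atf3 and at -66 and -47 in Slc7a11, on either strand.
Asns (chr6:7693200-7693257, reverse strand): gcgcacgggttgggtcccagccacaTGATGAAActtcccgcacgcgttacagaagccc
Atf3 (chr1:191183411-191183468, reverse strand): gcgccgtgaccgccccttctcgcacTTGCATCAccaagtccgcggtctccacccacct
Slc7a11 (chr3:50443628-50443704, reverse strand): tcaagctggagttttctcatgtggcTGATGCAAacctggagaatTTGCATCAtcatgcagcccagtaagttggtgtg

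Asns, asparagine synthetase, stood at 101, 91.2 and 94.9 TPM with trametinib, 214, 227 and 221 TPM with chemotherapy and 423, 414 and 428 TPM in untreated cells (-1.20 ± 0.05, adjusted p = 2.8e-13), so the 3 groups formed 3 steps. Trib3, a pseudokinase (10.2, 30.4 and 90.9 TPM, -1.49 ± 0.12), Cth, a cysteine-making enzyme (6.55, 42.1 and 95.2 TPM, -2.52 ± 0.10), and Slc7a11, the cystine transporter (2.00, 8.62 and 25.0 TPM, -1.68 ± 0.11), followed the same steps. Atf3 and Ddit3, stress transcription factors, did not. Atf3 was at 5.86, 5.21 and 5.15 TPM with trametinib, 43.5, 47.7 and 39.5 with chemotherapy and 18.8, 17.7 and 18.5 untreated (-2.80 ± 0.09), with chemotherapy the highest of the 3. Ddit3 differed by -2.19 ± 0.07 and Ppp1r15a, the phosphatase subunit that reverses the stress block on translation, by -2.09 ± 0.07. Atf4 itself was at 252 against 388 TPM (-0.62 ± 0.06).

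Ribosome biogenesis genes were lower in 29 of 34 cases and higher in 0 (median -0.67). Nolc1, a nucleolar phosphoprotein, was at 62.4, 50.5 and 55.3 against 151, 151 and 151 TPM (-1.42 ± 0.07), and the RNA methyltransferase gene Nop2 (-1.27 ± 0.07) and Mybbp1a (-1.03 ± 0.06) were lower as well. The smallest of the fixed leading members was Nop56 (-0.35 ± 0.07), and Npm1, nucleophosmin (0.10 ± 0.07), did not pass, except without chemotherapy library 2 (adjusted p = 0.010), where it was the 1 higher member. With all libraries 0 were higher at an unadjusted p under 0.05 in limma's test too.

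Cholesterol synthesis genes were higher with trametinib in 24 of 24 measured members, with differences from 0.37 to 2.57 and a median of 1.77. Sqle, squalene epoxidase (chromosome 15 at 59315077 to 59331192), stood at 77.8, 68.9 and 70.3 TPM with trametinib and 13.0, 14.3 and 12.6 TPM with chemotherapy (2.36 ± 0.06, adjusted p = 2.5e-16). Untreated cells held 27.3, 27.8 and 29.8 TPM, so Sqle was above them with trametinib (1.32) and below them with chemotherapy (-1.03). Fdps, farnesyl diphosphate synthase, was at 307, 286 and 288 against 54.8, 61.2 and 60.8 TPM (2.30 ± 0.08), and here the chemotherapy cells were near the untreated mean of 64.1 TPM. Nsdhl (2.00 ± 0.06), an enzyme of a late step, was higher too.

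Hmgcs1, which makes HMG-CoA, stood at 158, 138 and 138 against 30.1, 31.5 and 29.6 TPM (2.21 ± 0.08). It was the 1 list gene of 17 with a promoter entry (5.88%) whose window held a sterol element, searched as TCACNCCAC on both strands, against 1.34% of all tested genes with an entry. The stretch is shown with the match, at -137, in capitals.
Hmgcs1 (chr13:119690189-119690247, forward strand): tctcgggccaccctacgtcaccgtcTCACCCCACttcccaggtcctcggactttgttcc

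Glycolysis and hypoxia genes were higher with trametinib in 23 of 31 cases and lower in 4 (median 0.91). Adm, the vasodilator adrenomedullin, stood at 34.1, 39.7 and 40.4 TPM with trametinib and 4.82, 4.99 and 4.19 TPM with chemotherapy (2.78 ± 0.10, adjusted p = 6.9e-15), and untreated cells lay between at 12.2, 12.5 and 10.4 TPM. Egln1, the oxygen sensor that marks HIF for decay (63.9 against 18.1 TPM, 1.76 ± 0.09), and Pdk1, which keeps pyruvate out of mitochondria (211 against 63.4 TPM, 1.72 ± 0.08), were higher. So were the abundant enzymes Tpi1 (1996 against 807 TPM, 1.30 ± 0.05), Ldha (3130 against 1566 TPM, 1.00 ± 0.05) and Pkm (0.91 ± 0.05). Chemotherapy was lower than untreated for 22 of the 31 members and for 24.3% of all genes. The glucose transporter genes did not follow, since Slc2a1 had 43.4 and 43.5 TPM (-0.02 ± 0.14) and Slc2a3 was lower (-0.81 ± 0.12), as were Hk2, hexokinase (-0.42 ± 0.15), Eno2 (-0.57 ± 0.13) and Pfkfb3 (-0.43 ± 0.11). Hk2 no longer passed without chemotherapy library 1 (adjusted p = 0.058) or trametinib library 1 (adjusted p = 0.18), nor in a fit of the 6 libraries alone (adjusted p = 0.11). The motif ACGTG of hypoxia elements, searched on both strands, was in the window of 20 of 29 list genes with an entry (69.0%) and of 29.6% of all tested genes with one. Among the other lists with entries this share ran from 10% (interferon-stimulated and BCL2 family genes) to 66.7% (D cyclins and CDK inhibitors). Lysosome genes, which were split between directions, had 52.2%.

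**Figure D3:**
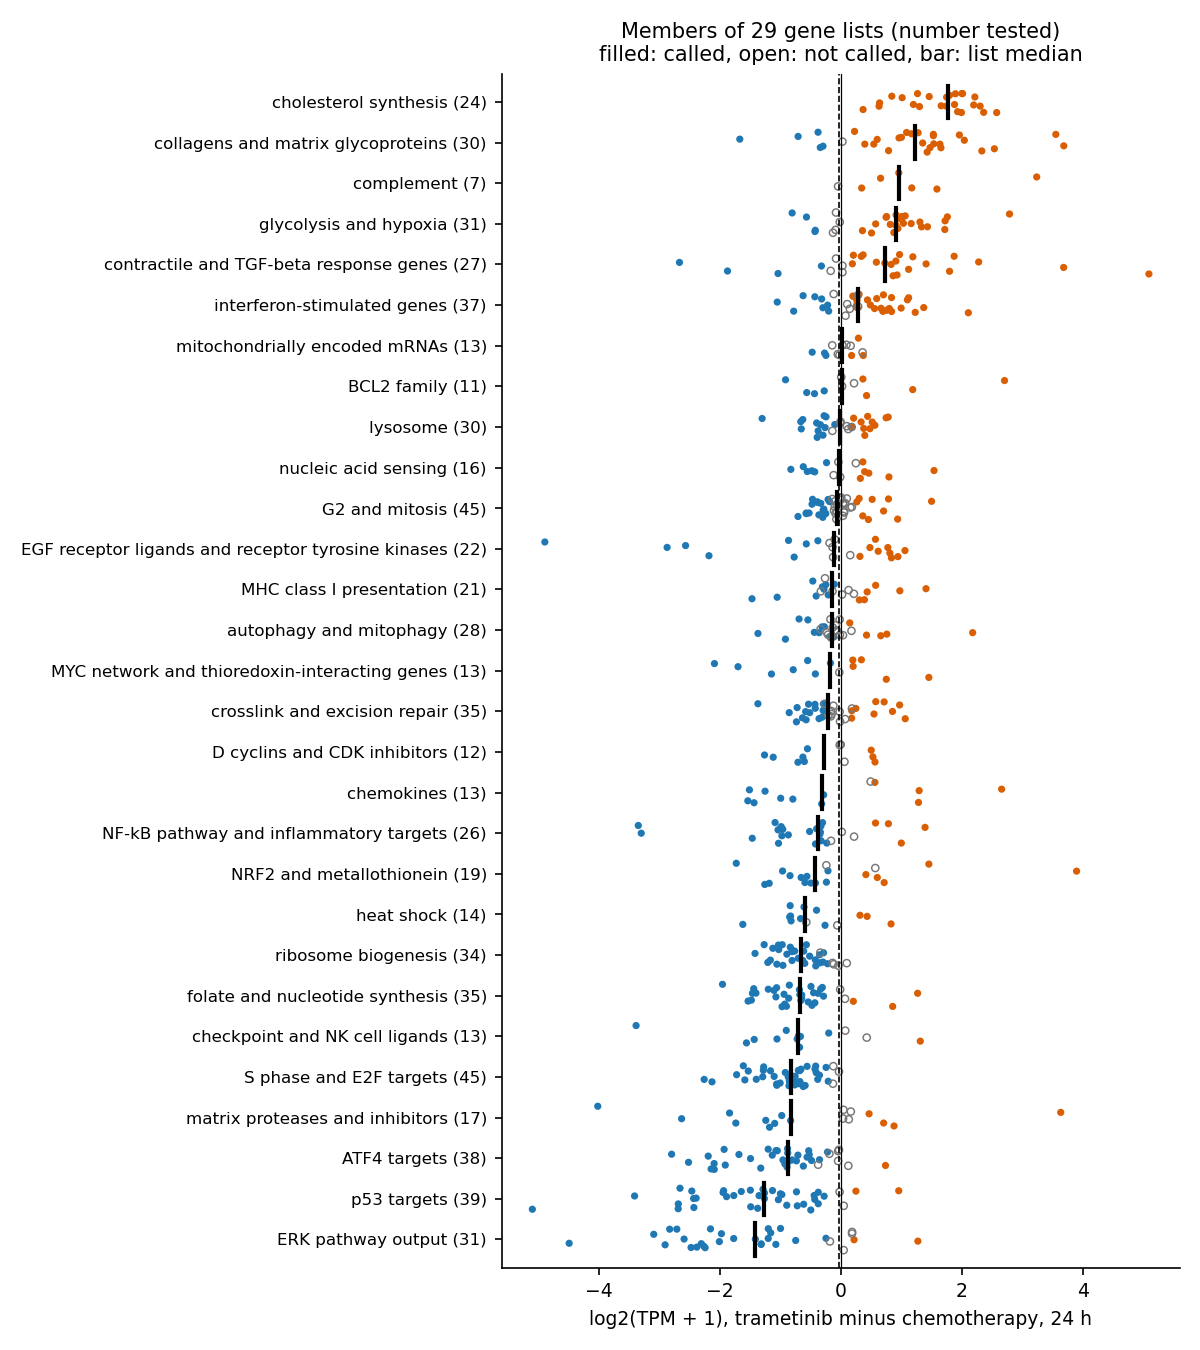
Differences at 24 h (log2 of TPM + 1, trametinib minus chemotherapy) of each tested member of the 29 gene lists, 1 point per gene, with called genes filled; the black bar is the list median and the dashed line the median of all genes tested, -0.04. Cholesterol synthesis lies wholly above 0 and ends at 2.57, while S phase lies wholly below it and reaches -2.26.

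Matrix genes were higher with trametinib. Of 30 measured collagens and matrix glycoproteins 24 were higher and 5 lower (median 1.22). Tgfbi, a matrix protein named for its induction by TGF-beta, stood at 105, 101 and 104 TPM with trametinib and 6.76, 7.87 and 6.88 TPM with chemotherapy (3.68 ± 0.12). Thbs1, thrombospondin (40.9 against 2.58 TPM, 3.55 ± 0.10), Fbn1, fibrillin (27.6 against 3.92 TPM, 2.53 ± 0.09), and the abundant Col3a1 (1090 against 265 TPM, 2.04 ± 0.09) and Fn1, fibronectin (659 against 258 TPM, 1.35 ± 0.07), behaved alike. Col1a1 was low, at 5.94, 5.78 and 5.38 TPM with trametinib and at or below 0.580 TPM with chemotherapy. The 5 lower members were Col18a1 (-1.67 ± 0.10), Fbln1 (-0.71 ± 0.09), Lama5 (-0.38 ± 0.11), Loxl3 (-0.34 ± 0.07) and Lamb1 (-0.30 ± 0.10). Fibroblast markers were higher in the same libraries, as given above. Those markers include Col3a1 and Col1a1 themselves, and the part of other cells in the matrix result was not tested.

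Of 27 contractile and TGF-beta response genes 19 were higher and 4 lower (median 0.72, and 0.35 over the 18 members with a mean of at least 5 TPM). Acta2, smooth muscle actin (chromosome 19 at 34241090 to 34255590), was at 162, 138 and 123 TPM with trametinib, 3.01, 3.29 and 3.18 TPM with chemotherapy and 5.95, 6.58 and 6.53 TPM in untreated cells (5.09 ± 0.10, adjusted p = 2.7e-18). Myl9, a regulatory myosin light chain, stood at 22.3, 23.5 and 17.2 against 0.520, 0.622 and 1.02 TPM (3.68 ± 0.26). It was the 1 gene of 18 in this list with a promoter entry (5.56%) whose window held a CArG box, the motif of serum response factor, against 1.55% of all tested genes with an entry, and that stretch is shown with the match, at -161, in capitals.
Myl9 (chr2:156775278-156775337, forward strand): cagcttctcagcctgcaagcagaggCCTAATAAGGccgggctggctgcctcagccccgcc

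Id2, an inhibitor of helix-loop-helix factors (128 against 36.1 TPM, 1.79 ± 0.09), Atoh8, a helix-loop-helix factor (2.27 ± 0.08), and the ligand gene Tgfb2 (1.41 ± 0.10) were higher, whereas Des, the muscle intermediate filament desmin, was at 1.00, 1.21 and 1.49 TPM with trametinib and 12.6, 13.0 and 13.8 TPM with chemotherapy (-2.67 ± 0.12). Tgfb1 (-1.04 ± 0.10), Smad7 (-1.87 ± 0.13) and Tgfbr1 (-0.32 ± 0.08) were the other lower members. Proteases and their inhibitors went 9 lower and 4 higher of 17. Mmp3, stromelysin, was at 7.97, 8.20 and 8.67 against 144, 163 and 141 TPM (-4.01 ± 0.09). Mmp13, a collagenase (-1.84 ± 0.10), and the protease inhibitor genes Serpine2 (-2.63 ± 0.11) and Timp1 (-1.09 ± 0.06) were lower. Adamts1, a metalloprotease of proteoglycans, was far higher, at 95.7, 87.5 and 84.2 against 5.876, 5.992 and 7.003 TPM (3.63 ± 0.11).

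Interferon-stimulated genes were higher with trametinib in 23 of 37 measured cases and lower in 8 (median 0.28, or 0.48 with a pseudocount of 0.1 TPM), and 13 further members lay below the filter. Trim21, an antibody receptor of the cytosol, stood at 7.41, 6.45 and 6.35 TPM with trametinib and 2.29, 1.72 and 2.00 TPM with chemotherapy (1.37 ± 0.08, adjusted p = 1.7e-11). Parp9 (13.2 against 5.63 TPM, 1.10 ± 0.09), Stat2, which carries interferon signals to the nucleus (0.99 ± 0.10), Ifi27 (0.80 ± 0.08) and Lgals9, galectin 9 (0.56 ± 0.05), were higher. The difference in Irf1 was small (0.27 ± 0.06), Isg15 did not pass (5.87 against 4.63 TPM, 0.28 ± 0.18, adjusted p = 0.16) except in a fit of the 6 libraries alone (adjusted p = 0.014), and Bst2, tetherin, was lower (-1.05 ± 0.20). Irf1 and Lgals9 were above untreated cells in both treatments (1.51 and 1.90 with trametinib, 1.24 and 1.35 with chemotherapy). Against untreated cells 33 of the 37 members were higher with trametinib and 1 lower (median 0.88). With chemotherapy 24 were higher and 0 lower (median 0.39). Of all 12581 genes, 4074 and 4393 were higher in these comparisons. Among sensors of nucleic acids 6 were higher and 6 lower of 16. Ifi204, a DNA-binding sensor, was higher (39.0 against 12.7 TPM, 1.54 ± 0.12), while Tmem173, the gene of the adaptor STING, was lower (41.4 against 74.2 TPM, -0.83 ± 0.05).

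Cxcl10, the chemokine named in the series title (chromosome 5 at 92346638 to 92348889), stood at 0.733, 0.617 and 0.486 TPM with trametinib and 3.05, 3.06 and 2.42 TPM with chemotherapy (-1.25 ± 0.12, adjusted p = 1.2e-08). The highest trametinib library lay below the lowest chemotherapy library, and the combination libraries, at 10.7, 13.0 and 9.82 TPM, lay above both. Ccl2, a chemokine for monocytes (41.3, 44.9 and 37.8 against 121, 112 and 125 TPM, -1.51 ± 0.12), its neighbour Ccl7 (-1.54 ± 0.13), Cxcl1 (-0.99 ± 0.12) and Cxcl16 (-1.43 ± 0.10) were lower too. Cxcl5, a ligand of the neutrophil receptor, was higher (27.5, 28.5 and 26.9 against 4.04, 4.02 and 2.72 TPM, 2.65 ± 0.12), as were Cxcl12 (1.29 ± 0.08), Cxcl15 (1.28 ± 0.10) and Cxcl3 (0.56 ± 0.15), the first of which reached 1.64 TPM. The call of Cxcl3 was lost with a pseudocount of 0.1 TPM (adjusted p = 0.071). In all, 4 of 13 measured chemokines were higher and 8 lower.

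Antigen presentation genes split, with 6 higher and 9 lower of 21. Tap1, a subunit of the peptide transporter, was at 4.27 against 13.5 TPM (-1.47 ± 0.17), Nlrc5, an activator of class I genes, differed by -1.05 ± 0.13, and B2m, the light chain of class I, by -0.31 ± 0.04. Erap1, the peptidase that trims peptides, was higher (14.8 against 4.96 TPM, 1.40 ± 0.09). H2-K1 (0.30 ± 0.11) and H2-D1 (-0.41 ± 0.05) are near-identical class I genes whose reads may be divided between them, so their opposite signs are uncertain. H2-K1 did not pass without chemotherapy library 2 or 3 or trametinib library 3 (adjusted p = 0.091, 0.088 and 0.070), and the count of lower members was 5 without chemotherapy library 3 or trametinib library 1. On rescaling of the libraries the split of this list became 7 higher and 6 lower, which turns the larger side.

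NF-kB genes were mostly lower (19 of 26, with 4 higher). Sele, E-selectin, was at 0.225 against 11.5 TPM (-3.35 ± 0.08), Ptgs2, cyclooxygenase, at 19.0, 15.5 and 18.2 against 184, 189.5 and 169 TPM (-3.30 ± 0.11), and Tnfaip3, an inhibitor of the pathway, differed by -0.99 ± 0.07. Vcam1, an adhesion molecule (157 against 59.2 TPM, 1.39 ± 0.06), the growth factor gene Csf1 (1.00 ± 0.08), Nfkb1 (0.78 ± 0.05) and Birc2 (0.57 ± 0.07) were the higher members. Of 13 checkpoint and NK cell ligands 10 were lower. Cd274, which encodes PD-L1, was at 1.89, 1.43 and 2.02 against 3.73, 4.72 and 4.12 TPM (-0.90 ± 0.09), Pvr, a ligand of TIGIT, at 14.9 against 41.8 TPM (-1.43 ± 0.06), and Raet1e, a ligand of NKG2D, at 18.5 against 31.3 TPM (-0.72 ± 0.08). Raet1d was lower as well (-1.06 ± 0.12). Raet1d and Raet1e belong to a family of similar genes, so both values are uncertain. Vsir, which encodes VISTA, was the 1 higher member (1.31 ± 0.16). Complement genes were higher in 6 of 7 measured cases. C1s1, a protease of the classical pathway, was at 93.0, 88.7 and 81.7 TPM with trametinib and 26.0, 27.7 and 32.3 with chemotherapy (1.59 ± 0.13).

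Regulators of cell death differed member by member, with 4 of 11 BCL2 family genes higher and 4 lower. Bmf, a BH3-only activator of death, stood at 14.5, 13.3 and 13.7 TPM with trametinib and 1.18, 1.15 and 1.52 TPM with chemotherapy (2.70 ± 0.17), opposite to Pmaip1. Bcl2l11, which encodes BIM, was lower (8.91 against 17.7 TPM, -0.91 ± 0.09), as was the survival gene Bcl2l1 (-0.56 ± 0.07), and Mcl1 did not pass (0.02 ± 0.07, adjusted p = 0.81). The mitophagy receptor genes Bnip3 (190.1 against 40.6 TPM, 2.18 ± 0.12) and Bnip3l (385 against 169 TPM, 1.19 ± 0.11) were higher, in an autophagy list of which 5 of 28 members were higher and 10 lower (3 higher without chemotherapy library 3). Among lysosome genes 11 of 30 were higher and 13 lower, which rescaling turned to 13 higher and 12 lower. They were led by the protease gene Ctsl (368 against 911 TPM, -1.30 ± 0.06). The NRF2 and metallothionein list gave 5 higher and 12 lower of 19, with Hmox1, heme oxygenase, at 16.5 against 56.6 TPM (-1.73 ± 0.15) and the glutathione transferase gene Gstm1 at 481 against 175 TPM (1.45 ± 0.06). Of 14 heat shock genes 9 were lower and 3 higher, with Hsp90aa1 at 1054 against 1881 TPM (-0.83 ± 0.07) and Hspa4l at -1.62 ± 0.12. Mitochondrially encoded mRNAs ran from -0.47 to 0.37, with 3 of 13 higher and 3 lower, and 1 higher without trametinib library 1 or 2, in a fit of the 6 libraries alone or with no filter on level.

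The same pair of treatments at 6 h, in libraries that share none with those of 24 h, gave 7114 called genes (56.5%), 4641 higher with trametinib (36.9%) and 2473 lower (19.7%). Rescaling the libraries by their median ratio evened this split to 3617 higher and 3518 lower and moved the median of all genes at 6 h from 0.10 to 0.00. Of the 3922 genes higher at 24 h, 2671 (68.1%) were also higher at 6 h and 154 were lower, while of the 4460 genes lower at 24 h, 1917 (43.0%) were also lower at 6 h, 708 (15.9%) were higher and 1835 (41.1%) were not called. The difference between treatments itself changed from 6 h to 24 h for 6184 genes (49.2%), upward for 1982 (15.8%) and downward for 4202 (33.4%), and the median of that change over all genes was -0.13. After rescaling that median was 0.00 and the split 2956 upward and 3117 downward, so a change is read against -0.13. The correlation of the differences at the 2 times across the 12581 genes was 0.555, as a description, since genes are not independent replicates.

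**Figure D4:**
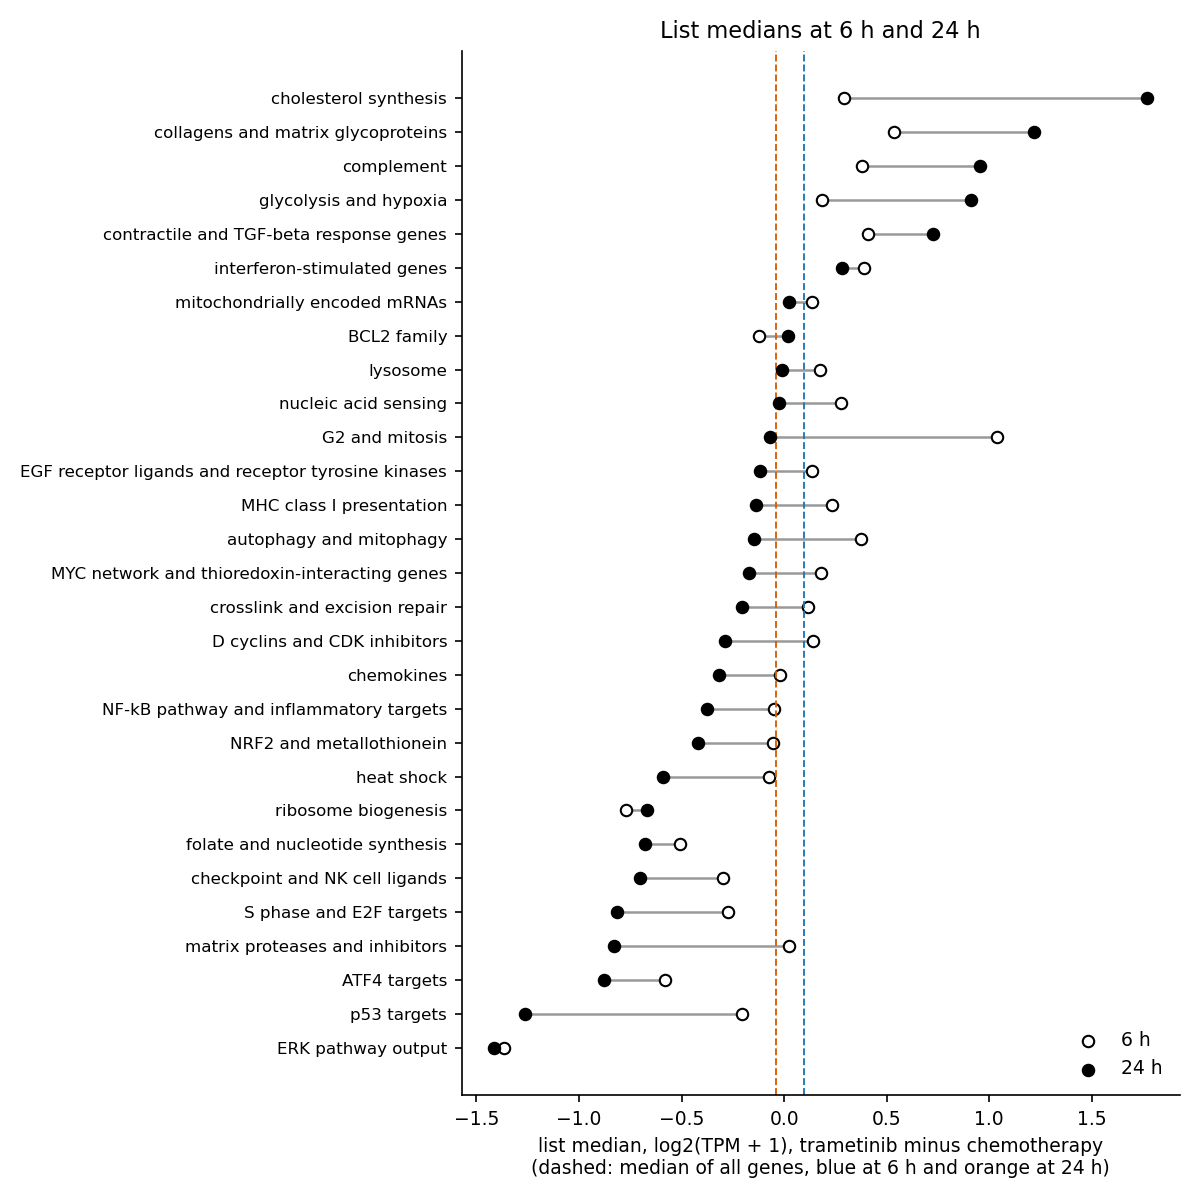
Median difference of each gene list (log2 of TPM + 1, trametinib minus chemotherapy) at 6 h (open points) and at 24 h (filled points), joined by a line; the 2 dashed verticals are the medians of all genes at 6 h (0.10) and 24 h (-0.04). G2 and mitosis moves from 1.04 to -0.07, and cholesterol synthesis from 0.29 to 1.77.

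ERK output was already apart at 6 h, with 25 members lower and a median of -1.37 against -1.41 at 24 h. Dusp6 stood at 24.5, 31.8 and 17.7 TPM with trametinib and 92.6, 81.2 and 76.9 TPM with chemotherapy at 6 h (-1.75 ± 0.14), and its change between times did not pass (0.34 ± 0.20, adjusted p = 0.17). Ribosome biogenesis was likewise early, with all 34 measured members lower at 6 h (median -0.77). The p53 list moved later, with 21 lower and 7 higher at 6 h (median -0.21), and from 6 h to 24 h the difference moved downward for 34 of its members (median change -0.92). Cdkn1a went from -1.01 at 6 h to -2.43 at 24 h (change -1.42 ± 0.17), and Pmaip1 from -1.62 to -5.09 (change -3.48 ± 0.13).

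Cholesterol synthesis separated between the times, since 13 of 24 members were higher at 6 h with a median of 0.29, and from 6 h to 24 h the difference moved upward for 23 of the 24. Sqle stood at 41.0, 40.0 and 39.8 TPM with trametinib and 41.4, 35.2 and 39.3 TPM with chemotherapy at 6 h (0.06 ± 0.06, adjusted p = 0.44), and the libraries of the 2 treatments overlapped. Glycolysis and hypoxia genes had 14 higher at 6 h, and the difference moved upward for 20 of 31.

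G2 and mitosis genes had the opposite course. At 6 h 42 of 45 were higher with trametinib and 0 lower, also at an unadjusted p under 0.05 in limma's test (median 1.04), and by 24 h the difference had fallen for 39 members. Plk1, a mitotic kinase, was at 97.7, 88.2 and 81.6 against 39.2, 30.6 and 32.4 TPM at 6 h (1.37 ± 0.11) and at 35.9, 36.1 and 35.0 against 34.1, 28.2 and 32.0 TPM at 24 h (0.18 ± 0.11), a change of -1.18 ± 0.15. Ect2 turned from higher (0.87 ± 0.07) to lower (-0.71 ± 0.07).

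Leaving out predicted genes and pseudogenes, the largest growth of a difference was in Ogn (change 3.68 ± 0.15), Ighm (3.65 ± 0.16), Adamts1 (3.27 ± 0.15), Acta2 (3.26 ± 0.14) and Cp (3.13 ± 0.17), each of which was already higher with trametinib at 6 h. The largest drops were in Crip2 (-3.77 ± 0.21), Anxa8 (-3.71 ± 0.16), Bglap2 (-3.60 ± 0.35), Atg9b (-3.57 ± 0.12) and Ces2g (-3.51 ± 0.11). Anxa8, an annexin, turned over entirely, from 6.67, 6.07 and 8.28 TPM with trametinib and 1.67, 0.985 and 1.13 TPM with chemotherapy at 6 h to 4.22, 3.98 and 4.82 and 17.2, 19.3 and 19.7 TPM at 24 h. Txnip (1.50 at 6 h, -1.15 at 24 h) and the chemokine genes Ccl7 (1.00 and -1.54) and Cxcl1 (0.55 and -0.99) passed the test in opposite directions at the 2 times. Cfb, complement factor B, did so the other way (-0.29 and 0.96).

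Genes with a long annotated span were more often higher than lower with trametinib. Of 216 protein-coding genes whose annotated span is at least 300 kb, 68.1% were higher and 13.9% lower (median 0.70), against 28.3% higher and 44.4% lower of the 3881 genes of 10 to 30 kb (median -0.12). The 1167 genes of 100 to 300 kb lay between, with 45.2% higher and a median of 0.15. At 6 h the longest group had a median of 0.60. Against untreated cells at 24 h its median was 0.02 with trametinib and -0.71 with chemotherapy. The groups also differ in level, since the median gene of at least 300 kb held 7.15 TPM with trametinib and 3.88 TPM with chemotherapy, and the median gene of 10 to 30 kb held 21.4 and 23.1 TPM, and the part of level in the result was not tested.

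**Figure D5:**
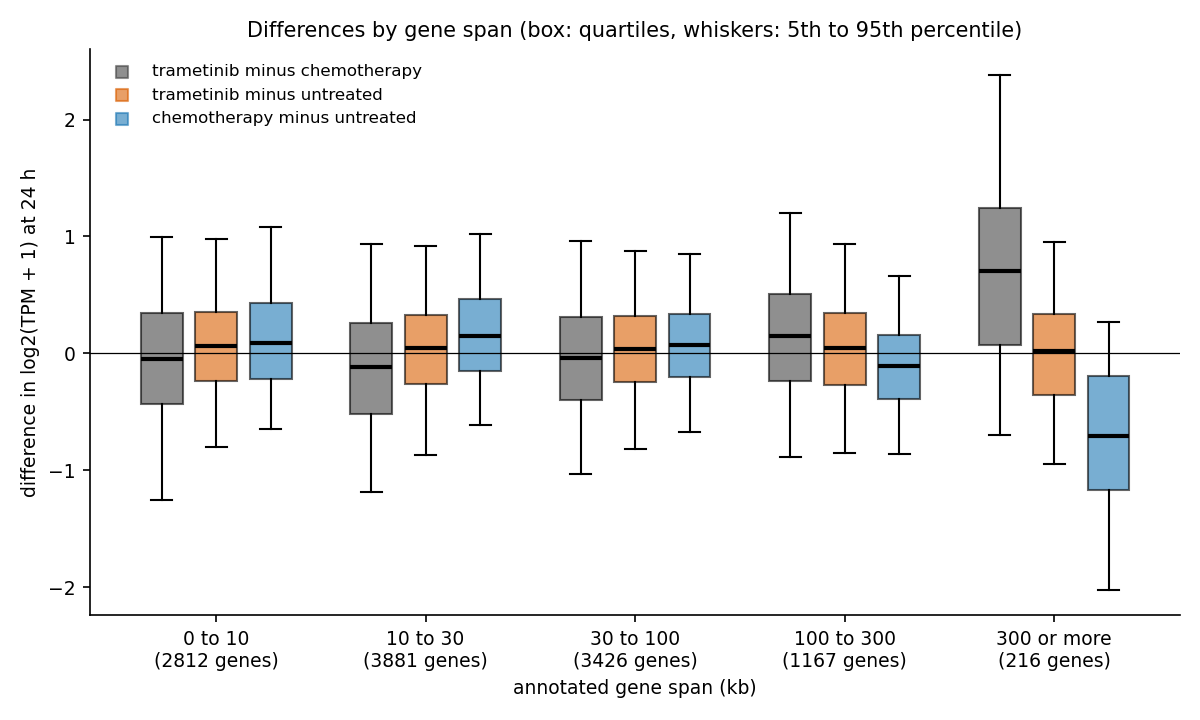
Differences at 24 h (log2 of TPM + 1) of protein-coding genes by annotated gene span in kb, for trametinib minus chemotherapy, trametinib minus untreated and chemotherapy minus untreated; boxes give the quartiles, whiskers the 5th to 95th percentile and bars the median. The 216 genes of at least 300 kb have medians of 0.70, 0.02 and -0.71 in that order.

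Elmo1, an activator of the GTPase Rac, spans 517.8 kb and stood at 14.2, 13.6 and 15.2 TPM with trametinib, 0.286, 0.346 and 0.383 TPM with chemotherapy and 2.59, 2.56 and 2.41 TPM untreated (3.52 ± 0.08). Slc9a9, an endosomal ion exchanger of 560.5 kb (13.8, 0.323 and 4.69 TPM, 3.49 ± 0.09), and Cpq, a carboxypeptidase of 511.4 kb (61.7, 5.24 and 34.1 TPM, 3.33 ± 0.08), are also among the 15 largest rises. For these 3 genes chemotherapy was below untreated cells and trametinib above them. Slc7a11, with a span of 551.1 kb, went against the group (-1.68 ± 0.11).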

How the data were processed

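Poly(A) RNA of LLC1 cells was sequenced in 24 libraries, 3 in each of 8 groups (4 treatments at 6 h and 24 h), and groups were taken from the sample labels. The authors deposited TPM of 82934 transcripts, made with bcl2fastq 2.17.1.14 and kallisto 0.45 on GRCm38 per the submitters' processing notes, with a transcript annotation whose version is not stated. TPM keeps no read depth, so no count model was run, although the series' design text names DESeq2 for the authors' own comparison, and no counting interval can be given. Here 79662 transcripts matched GENCODE M21 and were summed to 28328 genes; the 3272 others held 4.67% to 5.10% of the TPM in the 6 libraries. No 2 libraries held identical values.

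The 12581 genes that reached 1 TPM in 3 or more of the 24 libraries entered limma 3.58.1 (R 4.3.3), fitted on log2(TPM + 1), with 1 mean per group, 16 residual degrees of freedom, moderated variances with a trend on level, two-sided p-values and Benjamini-Hochberg adjustment over all 12581. When checked on data simulated for the 24 h comparison over 12581 genes, the test found 17 of 50 genes changed 1.25-fold, 42 of 50 at 1.5-fold, 48 of 50 at 2-fold and 50 of 50 at 4-fold, with 6 false calls. Each simulated gene had the same mean in all groups, with independent normal noise of its residual spread. Only the 50 genes per fold were then shifted, on the log2(TPM + 1) scale. In the real comparison 66.6% of genes were called, which loosens the threshold on p, so these counts do not carry over to it.

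The comparison and the 29 gene lists were chosen with earlier results of these data known. The lists hold 815 entries, of which 726 were tested, 87 lay below the filter and 2 were not found. Named genes are Cxcl10, the 15 largest called differences each way at 24 h among genes of at least 5 TPM without overlap, the 5 largest changes each way between times, and, from each list, up to 6 called members of smallest p and the first 3 members; not all are named, some are not reported here, and predicted genes and pseudogenes were skipped. Promoter sequences are from RefSeq (GRCm38.p6). Every motif was searched in every list, further motifs were searched too, and most of these shares are not reported here. The alternatives tried were another pseudocount, other filters, rescaling by median ratio, a fit of the compared groups alone, no variance trend, Bonferroni adjustment, a replicate block and leaving out each library.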

Additional observations from a re-analysis of the deposited data

Results flagged for a closer look

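The difference between trametinib and chemotherapy was tested for a change between 6 h and 24 h, in libraries that the 2 times do not share. It changed for 6184 of 12581 genes in limma's test at an adjusted p under 0.05. The genes below are named because they were among the 5 largest changes each way or because they passed the test in opposite directions at the 2 times; each value is the 24 h difference minus the 6 h difference on the log2(TPM + 1) scale, and the median over all genes was -0.13.

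The 5 largest upward changes were 3.68 ± 0.15 for Ogn, 3.65 ± 0.16 for Ighm, 3.27 ± 0.15 for Adamts1, 3.26 ± 0.14 for Acta2 and 3.13 ± 0.17 for Cp, and in each the groups were already apart in the same direction at 6 h. Cfb, complement factor B, turned from lower to higher with a change of 1.25 ± 0.16, and so did the class I gene H2-K1 with 0.59 ± 0.16, whose reads may be shared with near-identical genes and whose call at 24 h was lost without 1 of 3 libraries.

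Other genes moved towards chemotherapy. Crip2 changed by -3.77 ± 0.21, Bglap2 by -3.60 ± 0.35, Atg9b by -3.57 ± 0.12 and Ces2g by -3.51 ± 0.11. Anxa8 (-3.71 ± 0.16), Txnip (-2.64 ± 0.19), the chemokine genes Ccl7 (-2.53 ± 0.19) and Cxcl1 (-1.55 ± 0.17) and the cell division gene Ect2 (-1.58 ± 0.10) went from higher with trametinib at 6 h to lower at 24 h.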

How the results depend on the processing

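At 24 h 8382 genes were called (3922 higher, 4460 lower), and the count lay between 6692 and 9683 under other settings. These were a pseudocount of 0.1 TPM, a mean of at least 5 TPM, no filter and rescaling by median ratio. No variance trend, the 6 libraries alone and the replicate block were also among them. The lowest count was of 9505 genes tested at a mean of at least 5 TPM. The highest was of 22469 genes tested with no filter, a smaller share than the 66.6% of the 12581 genes. The Bonferroni rule at 0.10 moved every count, to 4247 at 24 h (1908 higher, 2339 lower), 2868 at 6 h (1889 and 979), 1845 for the change between times (520 and 1325), 3122 for trametinib against untreated and 3057 for chemotherapy against untreated. Leaving out 1 library gave 7893 to 8091 genes at 24 h (3598 to 3878 higher, 4118 to 4386 lower), 6442 to 6898 at 6 h (4129 to 4754 and 2144 to 2514), 5747 to 6263 for the change (1785 to 1991 and 3804 to 4475), 6821 to 6952 for trametinib and 6848 to 7107 for chemotherapy against untreated cells. With the replicate block 8231 genes were called at 24 h, 6885 at 6 h and 5935 for the change, and it changed the call of 0 of the 182 named genes at 24 h. Same-numbered trametinib and chemotherapy libraries of 24 h did not deviate together (correlations of 0.03, -0.36 and -0.22), so the numbers were not taken as pairs.

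Of 2514 values of the 182 named genes over 14 alternatives, 2475 kept direction and call. The call was lost in 23, 16 of those under Bonferroni, and gained in 4. Of the 182 genes, 171 were called at 24 h before any alternative, and many were named for large differences or small p. That choice favoured stable calls, also under the replicate block, and the alternatives reuse the same libraries. The sign turned in 12 cases, all of genes not called at 24 h. On rescaling Ddb2 was at 0.0053, Lig1 at 0.0007 and Slc2a1 at 0.0139. Leaving out 1 library gave -0.0892 to 0.0895 for Ddb2, -0.1240 to 0.0571 for Lig1, -0.0130 to 0.0709 for Mcl1, -0.1181 to 0.1705 for Slc2a1 and -0.0294 to 0.0909 for Xpc. Of the 29 list medians, 10 moved by more than the replicate SD with a pseudocount of 0.1 TPM and 9 at a mean of at least 5 TPM, where 11 of 58 list counts also moved by over 1.5 times and fewer members were tested; at that level the median of the EGF receptor list turned from -0.12 to 0.03. Bonferroni moved 24 of the 58 list counts. The deposited TPM hold no depth, so the error of low genes such as Cxcl10 is known only from the spread between libraries. That spread was pooled over the 8 groups and moderated across genes.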
